A study of Mus musculus with 12 samples.

Results

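TGF-beta and activin signaling was followed through 10 genes of the pathway in sorted cells of mouse liver cancer organoids: the ligand genes *Tgfb1*, *Tgfb2* and *Tgfb3*, the activin subunit genes *Inhba* and *Inhbb*, the receptor genes *Tgfbr1*, *Tgfbr2* and *Tgfbr3*, the antagonist gene *Fst* and the activator gene *Thbs1*. They were taken by name from the 47069 genes of the count table, and all 10 were present and had enough reads to be tested. The organoids were grown from liver tumors of C57BL/6 mice of the genotype LGR5-DTRGFP+, an allele that makes the diphtheria toxin receptor and GFP from the *Lgr5* locus and that all 12 libraries carry. Cells were sorted on GFP, with 3 libraries each from untreated LGR5-, untreated LGR5+, 5-FU treated LGR5- and 5-FU treated LGR5+ cells. For its cell sorts in general, the study also describes propidium iodide against dead cells and CD45 staining against leukocytes. The drug 5-fluorouracil (5-FU) blocks thymidylate synthesis and is built into RNA and DNA, and the study states a dose for its organoid assays but ties none, nor a duration, to the sequenced cells. Tumors were induced with diethylnitrosamine from a few weeks of age and collected months after the last injection. The age of the mice behind these libraries, and whether they come from 1 or several organoid lines, are not given in the sources used here, so P values measure the spread between these libraries.

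TGF-beta and activin ligands are secreted dimers that bring together a type II and a type I receptor kinase, which then phosphorylate Smad2 and Smad3. TGF-beta is released in a latent complex and has to be activated outside the cell, whereas activins are held in check mainly by secreted binding proteins such as follistatin. In liver, TGF-beta is known for restraining epithelial growth and for driving fibrosis, and activin is known for limiting hepatocyte growth.

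Counted reads per library ranged from 13750591 to 19323514, and a count of 0 allows up to 0.155 to 0.218 CPM (3 reads; counting error only). CPM is a gene's share of the counted reads, on library sizes scaled by TMM. *Lgr5*, the gene behind the sort, lay at 28.8 ± 6.63 CPM (SD, n = 3) in untreated LGR5- and 25.7 ± 2.12 in untreated LGR5+ cells, and at 25.1 ± 9.50 and 27 ± 0.196 after 5-FU, and its LGR5+ and LGR5- libraries overlapped in both treatments. The labelled tissue is liver, but of 7 hepatocyte markers *Serpina1a* and *Cyp3a11* had 0 reads in all 12 libraries, *Ttr*, *Hnf4a* and *Apoa1* had at most 1, 2 and 11, *Alb* had 2 to 33 and the fetal gene *Afp*, also a marker of liver cancer, 178 to 966, whereas the biliary and epithelial genes *Krt19* and *Epcam* had at least 6169 and 9193 reads and the surfactant gene *Sftpc* at least 46591. Of 10 fibroblast markers *Lum* and *Thy1* were at 0 in all libraries and *Dcn* (430 to 870 reads), *Pdgfrb* (22 to 125) and *Acta2* (15 to 133) were the most abundant, and of 7 endothelial markers *Tie1* and *Emcn* were at 0 and *Kdr* had 29 to 66 reads. LGR5- replicate 3 stood apart in both treatments, with 6.93% (untreated) and 6.44% (5-FU) of its reads on mitochondrial genes against 1.47% to 3.08% in the other 10 libraries.

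Promoters are shown for *Inhba*, *Inhbb* and *Tgfbr2*, which rose together with 5-FU in LGR5+ cells. The 250 bases before the transcription start were read 5′ to 3′ from a table of RefSeq promoters (GRCm38.p6). The table used here held 6 of the 10 genes, which says nothing on RefSeq itself. Capitals mark matches to a TATA box (TATAAA) or a GC box (GGGCGG), on either strand.
*Inhba*, chr13:16011601-16011850, plus strand: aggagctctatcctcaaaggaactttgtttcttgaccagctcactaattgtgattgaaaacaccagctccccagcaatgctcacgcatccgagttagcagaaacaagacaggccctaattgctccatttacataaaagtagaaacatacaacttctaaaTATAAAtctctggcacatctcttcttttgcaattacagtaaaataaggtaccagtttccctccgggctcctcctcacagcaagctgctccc
*Inhbb*, chr1:119422249-119422498, minus strand: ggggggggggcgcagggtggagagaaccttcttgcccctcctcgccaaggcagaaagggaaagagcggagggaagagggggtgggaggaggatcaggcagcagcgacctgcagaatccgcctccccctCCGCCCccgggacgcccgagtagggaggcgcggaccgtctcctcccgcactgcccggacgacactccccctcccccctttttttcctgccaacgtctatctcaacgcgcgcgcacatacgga
*Tgfbr2*, chr9:116175364-116175613, minus strand: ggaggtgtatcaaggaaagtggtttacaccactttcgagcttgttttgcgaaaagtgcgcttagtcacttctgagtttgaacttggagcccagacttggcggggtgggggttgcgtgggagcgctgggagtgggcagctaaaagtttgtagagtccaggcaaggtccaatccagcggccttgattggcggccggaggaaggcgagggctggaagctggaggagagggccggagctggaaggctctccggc
A TATA box stood 91 bases before the start of *Inhba* and a GC box 122 bases before the start of *Inhbb*, and neither was found in the *Tgfbr2* window. Of 32851 promoters in the table, 12.4% held the TATA box and 32.7% the GC box in the same length. The AP-1 site TGANTCA (6.75% of promoters), the CAGA box CCAGACA (5.01%), the palindromic Smad element GTCTAGAC (0.167%) and the E-box CACGTG (6.02%) were matched in none of these 3 windows. The GC content was 43.2% for *Inhba*, 68.0% for *Inhbb* and 58.4% for *Tgfbr2*, beside a median of 52.4% over all promoters.

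Of the 10 genes, the extracellular regulators *Fst* and *Thbs1* changed most with 5-FU. In LGR5+ cells 6 of the 10 genes passed an adjusted P under 0.05 in edgeR's quasi-likelihood test: *Fst*, *Thbs1*, *Tgfbr2*, *Inhbb* and *Inhba* rose and *Tgfbr3* fell. Of all 16157 genes tested, 16.0% passed in that comparison, 9.66% as higher and 6.37% as lower. In LGR5- cells 4 of 10 passed, all higher (*Fst*, *Thbs1*, *Inhbb* and *Tgfbr2*), where 15.4% of all genes passed, 8.30% as higher and 7.11% as lower. The median log2 change of the 10 genes was 0.75 in LGR5+ and 0.65 in LGR5- cells, and that of all tested genes was -0.02 and -0.05.

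**Figure D1:**
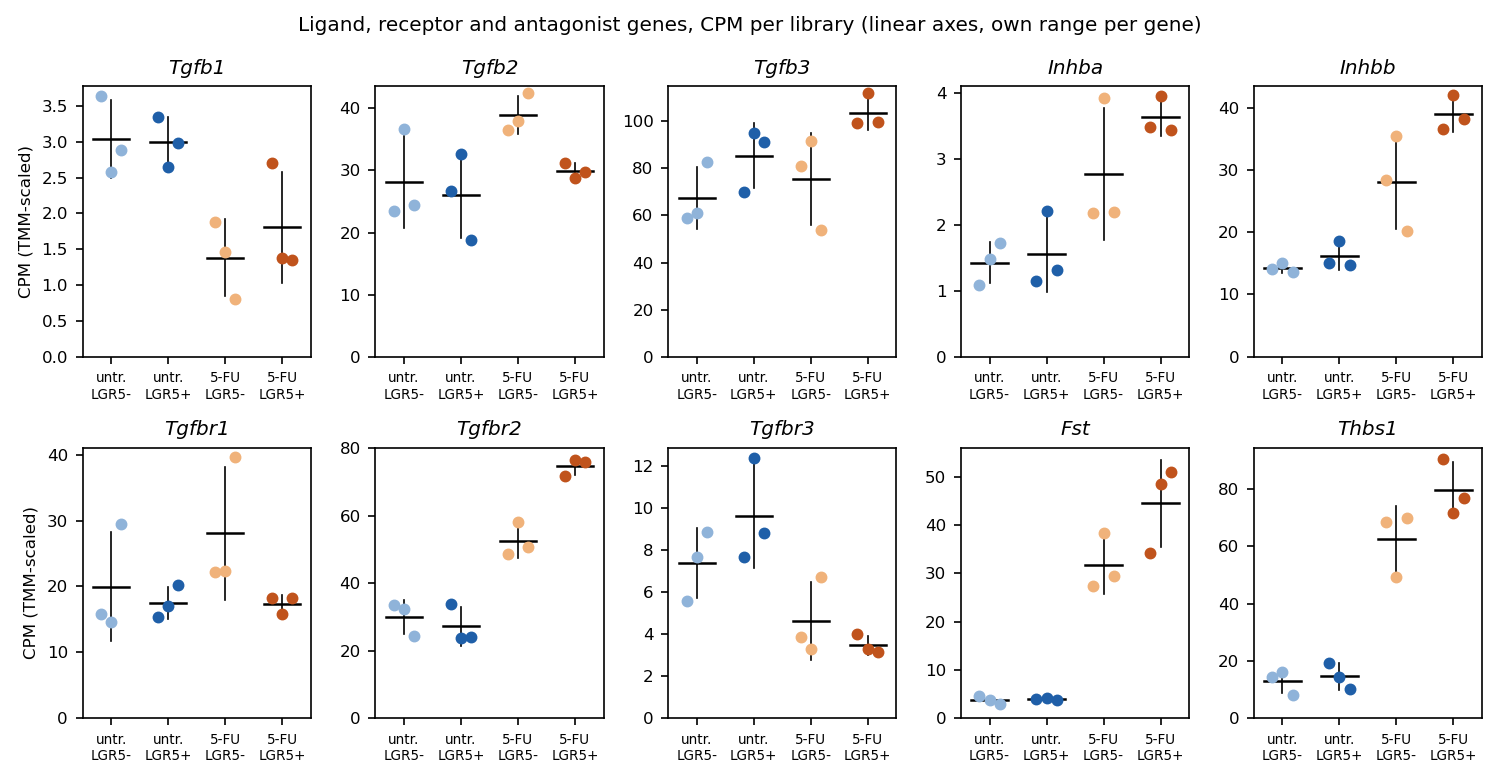
CPM of the 10 genes in each of the 12 libraries (points, replicates 1 to 3 from left to right) by group, with the group mean (horizontal line) and SD (vertical line), each gene on its own linear axis from 0. *Fst* and *Thbs1* lie between 3.0 and 4.54 and between 8.27 and 19.5 CPM in the untreated libraries and at 27.4 CPM or more and 49.3 CPM or more after 5-FU.

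*Fst* encodes follistatin, a secreted protein that binds activins and keeps them from their receptors (chr13:114452290-114458951, minus strand). It had 4.54, 3.84 and 3.0 CPM in untreated LGR5- and 4.10, 4.12 and 3.70 CPM in untreated LGR5+ cells, and 27.4, 38.5 and 29.4 CPM in 5-FU treated LGR5- and 34.2, 48.5 and 50.9 CPM in 5-FU treated LGR5+ cells. Every treated library was above every untreated one. The log2 fold change was 3.48 in LGR5+ cells (95% interval 2.99 to 3.98, 11.2-fold, adjusted P = 1.15e-06) and 3.06 in LGR5- cells (2.58 to 3.55, 8.37-fold, adjusted P = 3.3e-06). *Fst* and *Thbs1* are also on the list of TGF-beta pathway genes that the study drew from these libraries, so their rise is not independent of that choice.

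*Thbs1* encodes thrombospondin-1, a matrix protein that can release TGF-beta from its latent complex (chr2:118111876-118127133, plus strand). Its levels were 14.2, 16 and 8.27 CPM in untreated LGR5- and 19.5, 14.3 and 10.1 CPM in untreated LGR5+ cells, against 68.3, 49.3 and 69.8 CPM and 90.3, 71.5 and 76.9 CPM after 5-FU. The treated and untreated libraries did not overlap in either population. The log2 fold change was 2.45 in LGR5+ cells (1.86 to 3.03, 5.45-fold, adjusted P = 3.76e-05) and 2.28 in LGR5- cells (1.70 to 2.87, 4.86-fold, adjusted P = 0.000106). Thrombospondin-1 is also carried by platelets, and among 5 platelet markers *Gp9* had at most 1 read and *Gp1ba* at most 10, *Itga2b* had 22 to 89, *Ppbp* 4 to 447 and *Pf4* 5490 to 16146 reads. The mean level of *Ppbp* was 1.14 CPM without and 7.26 CPM with 5-FU in LGR5- cells and 2.24 and 23.3 CPM in LGR5+ cells. The means of *Pf4* were 504 and 499 CPM and 627 and 509 CPM in the same order, and those of *Itga2b* 2.62 and 1.62 CPM and 2.34 and 1.85 CPM. The summed level of the list was 389 to 998 CPM in untreated and 325 to 659 CPM in treated libraries, most of it *Pf4*. The part of other cell types in the change of *Thbs1* was not tested, and in bulk libraries fewer cells of a type and less RNA per cell cannot be told apart.

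The study called genes by limits on P and on the log fold change without stating an adjustment or the base of the log. With these read as an unadjusted P under 0.05 and a log2 change beyond 1.5 in either direction, *Fst* and *Thbs1* were the 2 of the 10 genes to pass in either population. This rule took 7.23% of all tested genes in LGR5+ and 7.00% in LGR5- cells.

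*Inhbb* encodes the activin beta-B subunit (chr1:119415465-119422248, minus strand). It stood at 14.1, 15.1 and 13.6 CPM in untreated LGR5- and 15.1, 18.6 and 14.8 CPM in untreated LGR5+ cells, and at 28.4, 35.4 and 20.3 CPM and 36.5, 42.0 and 38.1 CPM after 5-FU. The lowest treated library, LGR5- replicate 3, was still above the highest untreated one. The log2 fold change was 1.27 in LGR5+ (0.84 to 1.69, adjusted P = 0.000587) and 0.98 in LGR5- cells (0.55 to 1.4, adjusted P = 0.00442).

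*Inhba*, which encodes the beta-A subunit of activin A, was much rarer (chr13:16011851-16031621, plus strand). It had 18, 27 and 31 reads in untreated LGR5-, 20, 36 and 22 in untreated LGR5+, 37, 67 and 30 in 5-FU treated LGR5- and 62, 72 and 59 in 5-FU treated LGR5+ cells. In CPM the groups did not overlap in either population. The log2 fold change was 1.22 in LGR5+ cells (0.43 to 2.01, adjusted P = 0.0365) and 0.95 in LGR5- cells (0.15 to 1.74), where it did not pass (adjusted P = 0.104). The call in LGR5+ cells was not firm: it was lost without a filter on low counts, without TMM scaling, and without any of 5 of the 6 libraries compared (each but untreated replicate 2), with adjusted P values up to 0.132. The alpha subunit gene *Inha*, which pairs with either beta subunit to form inhibin, had 48 to 301 reads and passed in neither comparison.

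The TGF-beta ligand genes did not pass in either population. *Tgfb3* had 58.7, 61.0 and 82.7 CPM in untreated LGR5-, 69.8, 95.1 and 91.2 in untreated LGR5+, 81.0, 91.5 and 53.9 in 5-FU treated LGR5- and 99.0, 112 and 99.8 in 5-FU treated LGR5+ cells (chr12:86056745-86079041, minus strand). Its treated LGR5+ libraries were all above the untreated ones, but the log2 change was 0.28 (-0.18 to 0.74, adjusted P = 0.425). In LGR5- cells the groups overlapped through replicate 3 of both treatments and the log2 change was 0.16 (-0.30 to 0.62, adjusted P = 0.669). Without these replicate 3 libraries it was 0.53 and again did not pass (adjusted P = 0.0506).

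*Tgfb2* ranged from 18.8 to 36.7 CPM in untreated and from 28.8 to 42.4 CPM in treated libraries (chr1:186622792-186705989, minus strand), and its groups overlapped in both populations. Its log2 change was 0.20 in LGR5+ (-0.26 to 0.66, adjusted P = 0.577) and 0.46 in LGR5- cells (0.01 to 0.92, adjusted P = 0.169).

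*Tgfb1*, on the other hand, was lower in most treated libraries (chr7:25687002-25705077, plus strand). It had 60, 47 and 52 reads in untreated LGR5-, 58, 43 and 50 in untreated LGR5+, 32, 25 and 11 in 5-FU treated LGR5- and 48, 25 and 23 in 5-FU treated LGR5+ cells. In CPM the LGR5- groups did not overlap, and the LGR5+ groups overlapped through treated replicate 1 (2.70 CPM against 2.64 to 3.35 CPM in untreated cells). The log2 change was -1.12 in LGR5- (-1.95 to -0.28, adjusted P = 0.0693) and -0.73 in LGR5+ cells (-1.55 to 0.09, adjusted P = 0.226). The LGR5- difference passed in 2 of 14 alternatives, with DESeq2 (adjusted P = 0.0416) and with replicate number as a block in the edgeR fit (adjusted P = 0.0363). In the others it did not pass, with adjusted P values up to 0.223. Without LGR5- replicate 3 of both treatments it was -0.89 (adjusted P = 0.145 in edgeR).

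The receptor genes moved in different directions. *Tgfbr2* encodes the type II receptor that binds TGF-beta first and starts the signal (chr9:116084293-116175360, minus strand). It had 33.5, 32.3 and 24.3 CPM in untreated LGR5- and 33.8, 23.9 and 24 CPM in untreated LGR5+ cells, and 48.6, 58.1 and 50.5 CPM and 71.7, 76.5 and 75.9 CPM after 5-FU. All 6 treated libraries exceeded all 6 untreated ones, and the treated LGR5+ libraries were the highest. The log2 fold change was 1.46 in LGR5+ (1.06 to 1.85, 2.74-fold, adjusted P = 0.000111) and 0.80 in LGR5- cells (0.41 to 1.2, 1.75-fold, adjusted P = 0.00874).

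*Tgfbr3* encodes betaglycan, a co-receptor that presents TGF-beta to the type II receptor and also binds inhibin (chr5:107106570-107289629, minus strand). It had 5.57, 7.68 and 8.88 CPM in untreated LGR5- and 7.68, 12.4 and 8.84 CPM in untreated LGR5+ cells, and 3.88, 3.28 and 6.75 CPM and 3.99, 3.30 and 3.16 CPM after 5-FU. The LGR5+ groups did not overlap, and treated LGR5- replicate 3 lay within the range of the untreated LGR5- libraries. The log2 change was -1.47 in LGR5+ cells (-2.12 to -0.81, 2.76-fold lower, adjusted P = 0.00463) and -0.68 in LGR5- cells (-1.33 to -0.03, adjusted P = 0.156). Without 5-FU treated LGR5- replicate 3 the change in LGR5- cells was -1.01 and passed (adjusted P = 0.0485), the only 1 of 14 alternatives to call it. With replicate 3 left out of both LGR5- groups it was -0.89 and did not pass (adjusted P = 0.0545). *Tgfbr3* is on the study's pathway list for LGR5+ cells, so its fall there is not independent of that choice.

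*Tgfbr1* encodes the type I receptor that passes the signal to the Smads (chr4:47353222-47414931, plus strand). It had 15.8, 14.6 and 29.5 CPM in untreated LGR5-, 15.4, 17.0 and 20.2 in untreated LGR5+, 22.1, 22.4 and 39.7 in 5-FU treated LGR5- and 18.2, 15.9 and 18.2 in 5-FU treated LGR5+ cells. The highest library of each treatment was LGR5- replicate 3, the pair with the high mitochondrial share, and the part of that share in the level of *Tgfbr1* was not tested. The log2 change was -0.01 in LGR5+ (-0.61 to 0.59, adjusted P = 0.988) and 0.49 in LGR5- cells (-0.11 to 1.08, adjusted P = 0.270). Without untreated LGR5- replicate 3 it was 0.88 in LGR5- cells and passed (adjusted P = 0.0226), and with replicate 3 left out of both LGR5- groups it was 0.55 (adjusted P = 0.0545).

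**Figure D2:**
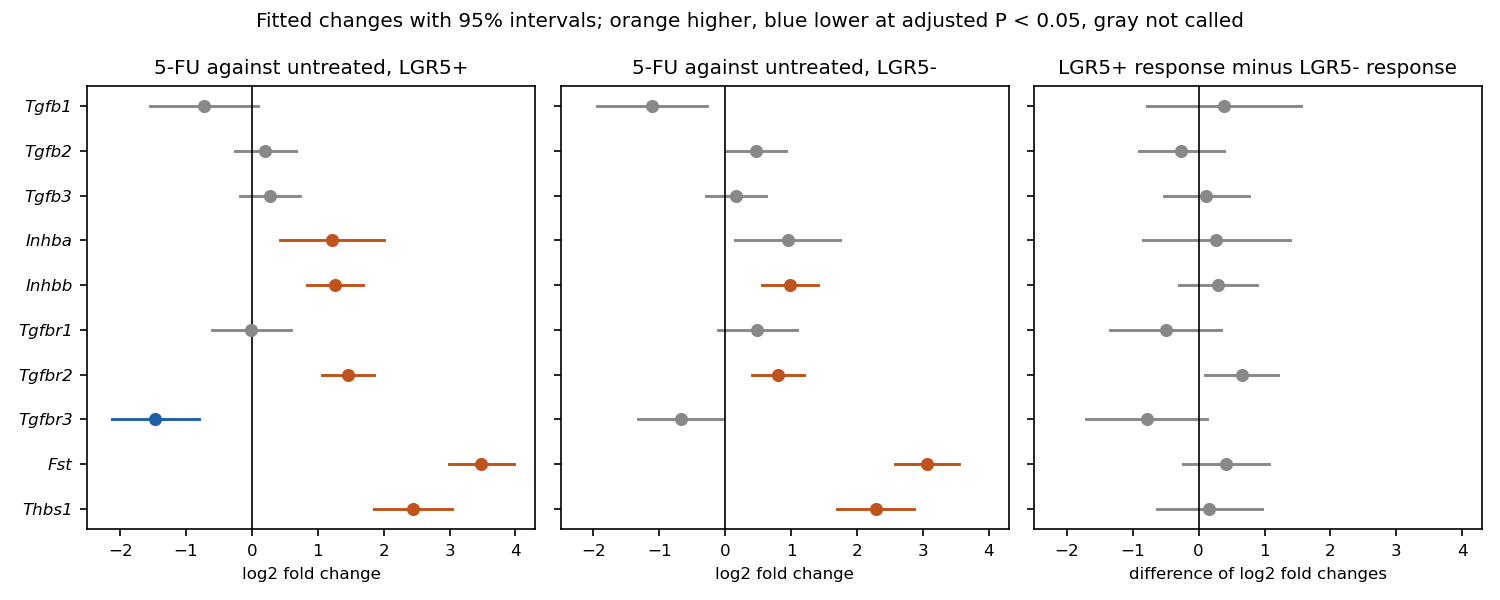
Fitted log2 fold changes of the 10 genes with 95% intervals for 5-FU against untreated in LGR5+ cells (left) and LGR5- cells (middle), and the difference between both responses (right). *Fst* has the largest change in each population, 3.48 and 3.06, and no difference between the responses passes an adjusted P under 0.05.

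By the bare ordering of libraries, 7 of the 10 genes had treated and untreated groups that did not overlap in LGR5+ cells (6 higher, 1 lower), where 42.3% of all tested genes did (22.3% higher, 20.0% lower). In LGR5- cells it was 6 of 10 (5 higher, 1 lower) against 27.1% of all genes (13.7% higher, 13.4% lower).

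Levels were compared between genes as RPKM, CPM per kilobase of exon. *Tgfb3* was first in every group, with 19.9 ± 3.91 RPKM (SD, n = 3) in untreated LGR5-, 25.2 ± 4.03 in untreated LGR5+, 22.3 ± 5.75 in 5-FU treated LGR5- and 30.6 ± 2.16 in 5-FU treated LGR5+ cells, and its libraries did not overlap with those of the next gene in any group. In untreated LGR5- cells *Tgfb2* (4.87 ± 1.28 RPKM), *Tgfbr2* (3.67 ± 0.613), *Inhbb* (3.35 ± 0.179), *Tgfbr1* (3.06 ± 1.27) and *Thbs1* (2.11 ± 0.668) came next, each overlapping with its neighbor. *Tgfbr3* (1.13 ± 0.256), *Fst* (0.827 ± 0.169) and *Tgfb1* (0.602 ± 0.108) followed, and *Inhba* was last at 0.224 ± 0.0498 RPKM.

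After 5-FU the order changed at *Thbs1* and *Fst*. In LGR5+ cells *Thbs1* went from sixth (2.40 ± 0.773 RPKM) to the second level (13.1 ± 1.60), and *Fst* from eighth (0.866 ± 0.0510) to the third (9.70 ± 1.97). *Fst*, *Inhbb* (9.14 ± 0.665) and *Tgfbr2* (9.12 ± 0.321) then overlapped with one another in turn, above *Tgfb2* (5.17 ± 0.206) and *Tgfbr1* (2.67 ± 0.208), which were each apart from their neighbors. *Inhba* (0.568 ± 0.0447), *Tgfbr3* (0.532 ± 0.0681) and *Tgfb1* (0.358 ± 0.153) closed the order and overlapped. In 5-FU treated LGR5- cells *Thbs1* was also second (10.3 ± 1.89 RPKM) and *Fst* the third (6.92 ± 1.29), overlapping in turn with *Tgfb2*, *Inhbb* and *Tgfbr2*, and *Tgfb1* was last at 0.275 ± 0.108 RPKM.

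Ratios of RPKM within a library put antagonist, ligand and receptor levels side by side. *Fst* over the sum of *Inhba* and *Inhbb* was 0.188 to 0.285 in the 6 untreated libraries (median 0.221) and 0.816 to 1.26 in the 6 treated ones (median 0.972), so transcripts of the antagonist went from below those of the activin subunits in every untreated library to near their level. *Inhbb* exceeded *Inhba* 11.9 to 19.6 times in untreated and 13.6 to 19.6 times in treated libraries, and these ranges overlapped. *Tgfb3* made up 72.5% to 87.6% of the RPKM of the 3 TGF-beta genes in untreated and 68.0% to 86.3% in treated libraries, and *Tgfb1* 1.53% to 3.26% and 0.684% to 1.52%.

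The balance of receptor transcripts shifted as well. *Tgfbr2* over *Tgfbr1* was 0.657 to 1.76 in the untreated libraries and 1.02 to 2.07 in treated LGR5- cells, and 3.14 to 3.85 in treated LGR5+ cells, above all other libraries. *Tgfbr3* over *Tgfbr2* was 0.208 to 0.650 in untreated and 0.0520 to 0.167 in treated libraries, without overlap. Ratios of transcripts do not give those of the proteins, and these were described without a test.

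**Figure D3:**
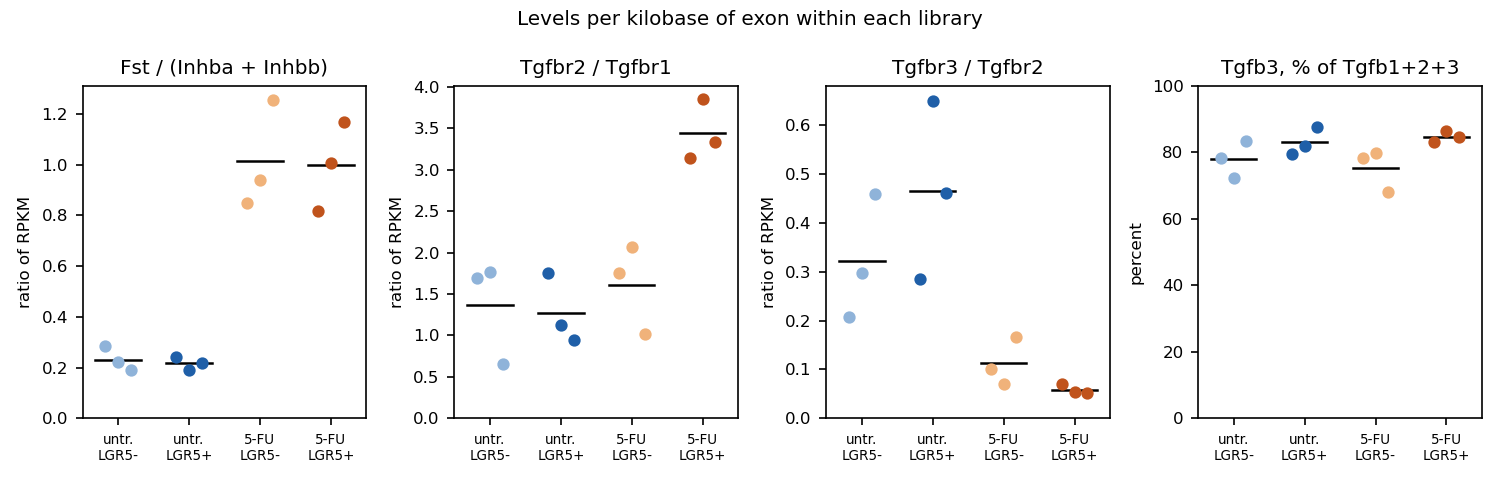
Ratios of RPKM within each library (points, replicates 1 to 3 from left to right; horizontal line, group mean) for *Fst* over the activin subunits, *Tgfbr2* over *Tgfbr1* and *Tgfbr3* over *Tgfbr2*, and the percentage of *Tgfb3* among the TGF-beta ligand transcripts. *Fst* over the activin subunits is at most 0.285 without and at least 0.816 with 5-FU.

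The comparison of LGR5+ with LGR5- cells asked whether these genes differ between the populations. In untreated cells none of the 10 passed: edgeR called 0 genes of 16157, with 214 (1.32%) at an unadjusted P under 0.05, and DESeq2 also called 0. None of the 10 had groups without overlap, against 5.28% of all genes (2.70% higher, 2.57% lower). The rule of fold and unadjusted P took 0 of the 10 and 0.458% of all genes. The log2 differences (LGR5+ over LGR5-) ran from -0.19 for *Tgfbr1* (-0.78 to 0.41) to 0.38 for *Tgfbr3* (-0.25 to 1.02). Without LGR5- replicate 3 of both treatments *Tgfbr1*, *Fst* and *Thbs1* changed sign (0.205, -0.08 and -0.05) and *Tgfbr3* differed by 0.54, and none of the 10 passed. Of the 8 marker lists, the cholangiocyte list did not overlap between the untreated populations (2388 to 2843 CPM in LGR5- and 2853 to 3112 CPM in LGR5+ cells). The intervals leave room for differences up to about 1 on the log2 scale, so the libraries do not show that the populations are alike.

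After 5-FU more genes had an unadjusted P under 0.05 between the populations than in untreated cells, but again none of the 10 genes passed. Such a count also depends on the spread within groups, so it does not show that the populations moved apart. edgeR called 0 genes of all tested, with 2095 (13.0%) at an unadjusted P under 0.05, and DESeq2 called 75 genes and none of the 10. By order of the libraries, *Tgfb3*, *Tgfbr2*, *Inhbb* and *Thbs1* were higher and *Tgfb2* and *Tgfbr1* lower in every LGR5+ library than in any LGR5- library, 6 of 10 against 24.4% of all genes (14.2% higher, 10.2% lower). The rule of fold and unadjusted P took 0 of the 10 and 1.70% of all genes. In the edgeR fit *Tgfbr2* differed by 0.51 (0.12 to 0.90), *Fst* by 0.49 (0.05 to 0.92), *Inhbb* by 0.47 (0.05 to 0.89) and *Tgfbr1* by -0.69 (-1.28 to -0.09), with adjusted P values of 0.352 to 0.365. Without LGR5- replicate 3 in both treatments these differences were 0.48, 0.43, 0.28 and -0.36 (adjusted P 0.378 to 0.56). Marker levels set the same libraries apart: in treated LGR5- and LGR5+ cells the 6 cholangiocyte markers summed to 3425 to 7786 and 7992 to 11890 CPM and the 6 epithelial markers to 4174 to 8881 and 8967 to 11900 CPM, and their part in these differences was not tested.

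In the treated populations same-numbered LGR5+ and LGR5- libraries deviated together, with correlations of 0.217 to 0.571. These rest on 3 pairs and on deviations from means of 3 libraries. Treated LGR5- replicate 3 and LGR5+ replicate 2 also reached 0.117, so a pairing by number is not established. A fit of the 6 treated libraries with replicate number as a block, chosen after seeing the data, called 451 genes (2.97%) and none of the 10, the lowest adjusted P being 0.0585 for *Tgfbr1* (log2 difference -0.71) and 0.0716 for *Tgfbr2* (0.44). 5 other pathway genes were called there, all outside the naming rule and named after their values were seen, and they are described with the pathway lists.

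The difference between the 5-FU responses of LGR5+ and LGR5- cells was tested as an interaction, and no gene passed: edgeR called 0, with 254 genes (1.57%) at an unadjusted P under 0.05, and DESeq2 also called 0. The rule of fold and unadjusted P took 0 of the 10 and 0.427% of all genes. *Tgfbr2* had the lowest unadjusted P of the 10, with a response 0.65 larger on the log2 scale in LGR5+ cells (0.10 to 1.2, adjusted P = 1.0). For *Tgfbr3* the difference was -0.79 (-1.71 to 0.13), for *Fst* 0.42 (-0.23 to 1.07) and for *Inhba* 0.27 (-0.85 to 1.39), which changed sign to -0.02 without LGR5- replicate 3 of both treatments. That *Tgfbr3* and *Inhba* passed in LGR5+ and not in LGR5- cells is thus not shown to be a difference between the populations.

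The rest of the pathway was read from 6 lists with 69 genes in the count table, of which 50 had enough reads to be tested. With 5-FU 13 of 50 passed in LGR5+ cells (11 higher, 2 lower) and 13 of 50 in LGR5- cells (12 higher, 1 lower), beside the 16.0% and 15.4% of all genes given above. Without LGR5- replicate 3 of both treatments, 20 passed in LGR5+ cells, where 27.5% of all genes did. The median log2 change over the tested genes was 0.24 and 0.23. Of the other ligand genes only *Inha* and *Gdf11* had enough reads, and neither passed.

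Most calls were among 21 genes listed as targets of the pathway. In each population 8 of the 16 tested targets passed, 7 higher and 1 lower. Of all genes tested, 16.0% passed in LGR5+ and 15.4% in LGR5- cells. The median log2 change of the tested targets was 1.07 in LGR5+ and 0.86 in LGR5- cells. The list did not separate genes that the pathway raises from those it lowers, so these values do not measure its output. *Smad7* and *Skil* were listed with the regulators, not the targets, and did not pass. *Pmepa1*, a target that feeds back on Smad2 and Smad3, went from 35.5 ± 5.24 to 197 ± 30.9 CPM in LGR5+ (log2 change 2.48, adjusted P = 4.19e-06) and from 39.6 ± 5.95 to 167 ± 26.6 CPM in LGR5- cells (2.08, adjusted P = 2.35e-05; SD, n = 3). *Ccn2*, which encodes a matricellular growth factor, rose from 16.7 ± 3.47 to 69.5 ± 13.3 CPM in LGR5+ cells (2.06, adjusted P = 9.63e-05) and from 15.4 ± 4.81 to 41.6 ± 10.3 CPM in LGR5- cells (1.43, adjusted P = 0.00197).

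*Lif*, which encodes a cytokine of the interleukin-6 family and is also on the study's list, rose from 5.63 ± 0.917 to 19.8 ± 2.38 CPM in LGR5+ (1.81, adjusted P = 4.54e-05) and from 4.66 ± 0.854 to 13.2 ± 1.23 CPM in LGR5- cells (1.5, adjusted P = 0.000314). *Cdkn1a*, which encodes the cell-cycle inhibitor p21 and is also a main target of p53, rose from 840 ± 125 to 3118 ± 493 CPM in LGR5- cells (1.89, adjusted P = 0.000182) and from 1077 ± 228 to 3541 ± 534 CPM in LGR5+ cells (1.72, adjusted P = 0.000271). *Cdkn1a* thus answers to another input too, and which input moved these target genes was not tested.

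Among the targets 1 gene fell. *Vim*, which encodes the mesenchymal filament vimentin, fell from 5.61 ± 1.2 to 1.92 ± 1.46 CPM in LGR5+ (-1.54, adjusted P = 0.0423) and from 6.00 ± 1.70 to 1.24 ± 0.731 CPM in LGR5- cells (-2.25, adjusted P = 0.00759). Its call in LGR5+ cells was lost without any library of that comparison but treated replicate 1 (adjusted P 0.0605 to 0.181), without which the change was -2.36 (adjusted P = 0.00408).

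Outside the targets 5 of 34 tested genes passed in each population, 14.7%, near the share of all genes. Of 8 tested genes for latency and activation, *Itgb6* passed, the beta-6 integrin chain that activates latent TGF-beta on epithelium, and went from 6.53 ± 0.486 to 17.3 ± 1.34 CPM in LGR5+ (log2 change 1.4, adjusted P = 0.000164) and from 5.81 ± 0.846 to 12.4 ± 1.16 CPM in LGR5- cells (1.09, adjusted P = 0.00161). Of 4 tested receptor genes, *Acvr2b*, a type II activin receptor gene, fell from 5.11 ± 1.04 to 2.50 ± 0.319 CPM in LGR5+ cells (-1.03, adjusted P = 0.0400), a call lost without any 1 of the 6 libraries compared (adjusted P 0.0504 to 0.152).

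Among 6 antagonists, *Fstl1*, a follistatin-like gene, rose from 2.50 ± 0.0480 to 5.43 ± 1.33 CPM in LGR5+ (1.12, adjusted P = 0.0149) and from 2.62 ± 0.568 to 5.98 ± 1.03 CPM in LGR5- cells (1.19, adjusted P = 0.0112). Its call was lost without untreated LGR5+ replicate 3 or treated LGR5+ replicate 1 (adjusted P = 0.0575 and 0.0674 in LGR5+ cells) and without untreated LGR5- replicate 1 (0.0568 in LGR5- cells), and in a fit of only the LGR5- libraries (0.063). *Bambi*, which encodes a decoy receptor without a kinase, rose in LGR5- cells from 116 ± 8.38 to 226 ± 41.1 CPM (0.96, adjusted P = 0.00299) and stood at 100 ± 11 and 140 ± 15.8 CPM in LGR5+ cells (0.49, adjusted P = 0.0841). In LGR5+ cells it passed without LGR5- replicate 3 of both treatments (0.48, adjusted P = 0.0197) and in a fit of only the LGR5+ libraries (0.48, adjusted P = 0.0312). The interaction for *Bambi* was -0.47 (-1.02 to 0.07).

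Of 14 tested Smads and regulators, *Ski*, a corepressor of Smads, and *Nedd4l*, a ubiquitin ligase that acts on Smad2 and Smad3, passed in both populations. *Ski* rose by 1.0 (adjusted P = 0.00236) in LGR5+ and 0.88 (adjusted P = 0.00613) in LGR5- cells on the log2 scale, and *Nedd4l* by 0.82 (adjusted P = 0.00237) and 0.58 (adjusted P = 0.0213). The *Nedd4l* call in LGR5- cells was lost without untreated LGR5- replicate 1 or 2 or treated LGR5- replicate 1 or 2 (adjusted P 0.0576 to 0.0972), without a filter (0.0644), without TMM (0.0507) and in a fit of only the LGR5- libraries (0.114). The signal carriers *Smad2*, *Smad3* and *Smad4* and the inhibitor *Smad7*, named as examples that did not pass, had log2 changes of 0.26, 0.23, -0.05 and -0.06 in LGR5+ cells. Their changes in LGR5- cells were -0.20, 0.19, -0.35 and 0.25.

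**Figure D4:**
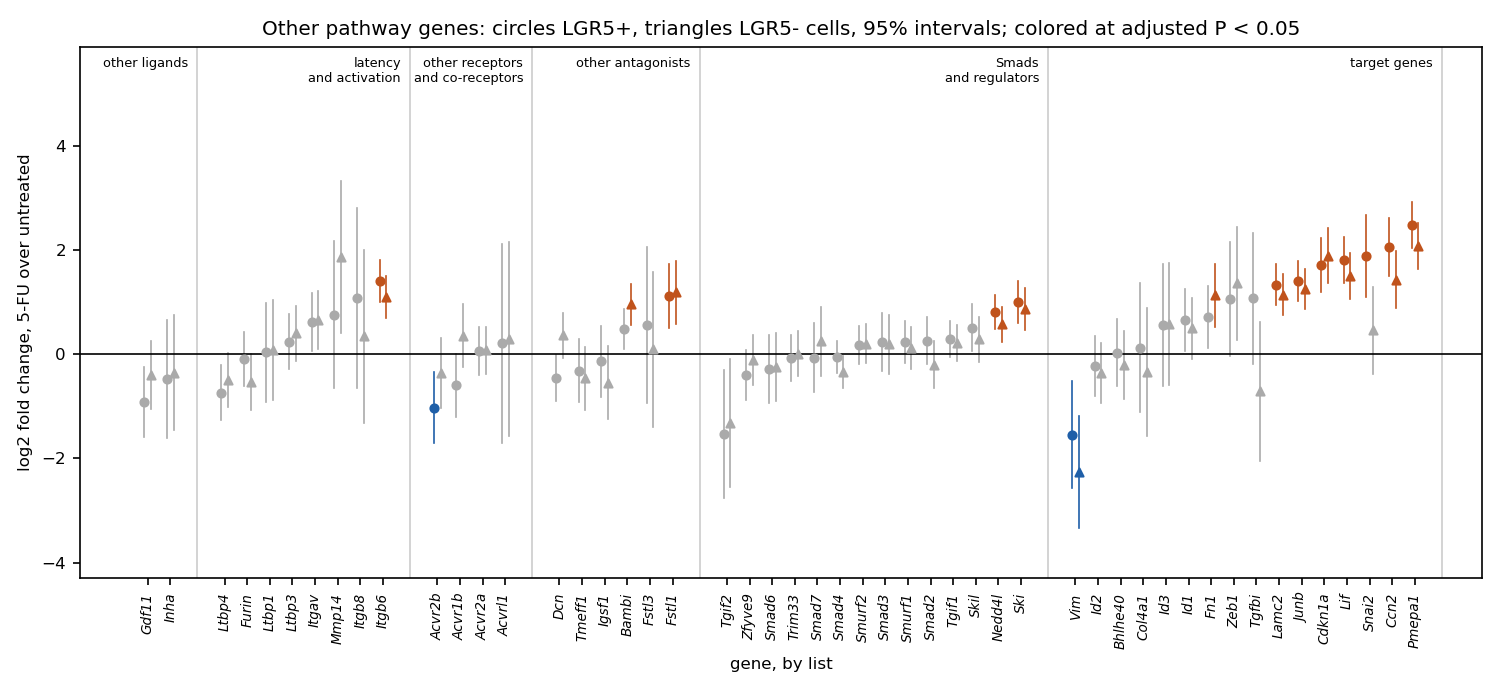
Fitted log2 changes with 5-FU for the 50 tested genes of the 6 pathway lists in LGR5+ (circles) and LGR5- cells (triangles), with 95% intervals; orange is higher and blue lower at an adjusted P under 0.05, and gray did not pass. Of the 13 calls in each population 8 are in the target list, with *Pmepa1* highest at 2.48 and 2.08 and *Vim* lowest at -1.54 and -2.25.

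Between treated populations the 5 genes called in the paired fit were *Snai2*, *Tgfbi* and *Ccn2*, higher in LGR5+ cells, and *Bambi* and *Dcn*, lower. *Snai2*, which encodes the transcription factor Slug, had 147, 248 and 159 reads in treated LGR5+ and 37, 46 and 23 in treated LGR5- cells, against 34, 59 and 47 and 28, 15 and 41 in untreated cells. The treated populations did not overlap, and the log2 difference was 2.24 in the fit of all 12 libraries (1.44 to 3.05, adjusted P = 0.143) and 2.17 in the paired fit (adjusted P = 0.00728). Of 15 alternatives read by adjusted P, 3 called it, the paired fit, DESeq2 (adjusted P = 4.47e-05) and no filter on low counts (adjusted P = 0.000467). The others did not, among them the block over all 12 libraries (0.081) and the fits without each treated library in turn (up to 0.721), while the log2 difference stayed between 2.01 and 2.43. The rule of fold and unadjusted P also took *Snai2*, and *Tgfbi* with it. With 5-FU *Snai2* passed in all 14 alternatives in LGR5+ cells (log2 change 1.65 to 2.12). In LGR5- cells it passed in 0 of 14 (0.14 to 0.96). As 0 pathway genes passed the interaction, this is not shown to be a difference between the responses.

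*Tgfbi*, which encodes a TGF-beta induced matrix protein, had 119, 67 and 52 reads in treated LGR5+ and 43, 10 and 4 in treated LGR5- cells, a paired log2 difference of 2.14 (adjusted P = 0.0289). It was 1.95 in the fit of all 12 libraries (adjusted P = 0.344) and by adjusted P it passed in 1 of 14 alternatives, the paired fit. It was 3.30 without treated LGR5- replicate 1, which holds most LGR5- reads. *Ccn2* differed by 0.67 (adjusted P = 0.0420), *Bambi* by -0.75 (adjusted P = 0.0356) and *Dcn*, which encodes the TGF-beta binding proteoglycan decorin, by -0.75 (adjusted P = 0.0346) in the same edgeR fit, and *Bambi* also passed with DESeq2 (-0.69, adjusted P = 0.0454). Of 15 alternatives, *Ccn2* and *Dcn* passed in 1 each and *Bambi* in 2, with adjusted P values up to 0.883 in the others. The log2 differences ran from 0.62 to 0.97 for *Ccn2*, -0.80 to -0.54 for *Bambi* and -0.84 to -0.49 for *Dcn*. *Dcn* is also a fibroblast marker. Beside its 430 to 870 reads per library, *Col1a2*, *Col3a1* and *Postn* had at most 3, *Lum* and *Thy1* 0, *Col1a1* at most 11 and *Pdgfra* at most 17. *Acta2* had a mean of 3.07 and 6.15 CPM without and with 5-FU in LGR5- and 1.81 and 5.17 CPM in LGR5+ cells, and *Pdgfrb* 5.04 and 2.12 CPM and 5.62 and 2.71 CPM. The summed level of the 10 fibroblast markers, most of it *Dcn* itself, was 50.9 to 68.5 CPM in treated LGR5- and 32 to 46.8 CPM in treated LGR5+ libraries, against 42.0 to 53.9 and 50 to 53.0 CPM in untreated ones. It was thus lower in every treated LGR5+ library than in any treated LGR5- or untreated LGR5+ library.

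Other marker levels moved with 5-FU beside these changes, and 2 lists did so without overlap of treated and untreated libraries. The summed level of 7 hepatocyte markers, most of it *Afp*, was 10.6 to 22.4 CPM in untreated and 26 to 56.4 CPM in treated libraries, and that of 6 cholangiocyte markers, led by *Krt7*, *Krt19* and *Epcam*, 2388 to 3112 and 3425 to 11890 CPM. Within LGR5+ cells the summed level of 6 epithelial markers did not overlap either (4017 to 4450 CPM in untreated and 8967 to 11900 CPM in treated libraries), whereas within LGR5- cells it did (3078 to 4442 and 4174 to 8881 CPM). That of 8 macrophage markers was 32.1 to 37.7 and 45.3 to 86.5 CPM within LGR5- cells, without overlap, and 34.7 to 66.5 and 59.5 to 115 CPM within LGR5+ cells. It was carried by *Cd14* and *Cd68*, while *Adgre1* had at most 7 reads and *Fcgr1* at most 1. *Ptprc*, the gene of the CD45 that the study stained to leave out leukocytes, had 3 to 36 reads. The summed level of 8 lung epithelium markers was 3575 to 17560 CPM in untreated and 3149 to 6611 CPM in treated libraries, and that of 7 endothelial markers 1.91 to 3.89 and 2.28 to 5.00 CPM, and both overlapped in each population. The lung sum was almost all *Sftpc*, whose mean was lower with 5-FU (12400 and 5190 CPM in LGR5-, 8770 and 4290 CPM in LGR5+ cells), whereas *Sftpd* (55.3 and 308, 58.3 and 375 CPM), *Ager* (27.3 and 93.5, 23.3 and 81.2 CPM) and *Scgb1a1* (1.56 and 28.2, 5.13 and 50.7 CPM) had higher means with 5-FU, as did *Sftpa1*, *Lamp3* and *Nkx2-1*. *Sftpb* had a lower mean with 5-FU in LGR5- cells (20.8 and 16.3 CPM) and a higher one in LGR5+ cells (21 and 27.2 CPM). The part of all these markers in the changes of the pathway genes was not tested.

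The genes with the most similar profile were sought among all tested genes, as the smallest root mean square distance between log2 CPM profiles (prior count 2) over the 12 libraries, each scaled to a mean of 0 and an SD of 1. A distance of 0 would be the same profile. Nearest to *Fst* were *Btg2* (0.0979) and *Mcam* (0.106), and nearest to *Thbs1* were *Tm4sf1* (0.179) and *Sftpd* (0.192). *Inhbb* was nearest to *Inava* (0.139) and *Gss* (0.145), and *Tgfbr2* to *Wdr35* (0.153) and *Cmtm3* (0.156).

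*Tgfb1* lay nearest to *Gen1* (0.199) and *Cdc45* (0.215), and *Tgfbr3* to *Fgf21* (0.253) and *Col9a1* (0.327), the former with a mean of 0.799 CPM. For *Inhba* they were *Rab11fip5* (0.287) and *Dapk2* (0.300), for *Tgfb3* *Prag1* (0.372) and *Smox* (0.378), and for *Tgfb2* *Saa3* (0.352) and *Adam19* (0.433). The nearest gene to *Tgfbr1* was the mitochondrial *mt-Nd4* (0.254), whose reads are part of the mitochondrial share that set LGR5- replicate 3 apart. The libraries share treatment and sort, so these distances carry the 5-FU response with them.

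Some exons of the 10 genes overlap other annotated genes, and strand use in the counting is not given in the sources used here. Antisense models share 124 bp of exon with *Tgfb2*, 257 and 163 bp with *Tgfb3*, 115 bp with *Fst* and 208 bp with *Thbs1*, and a same-strand model shares 297 bp with *Tgfbr3*. Where these models are in the count table they had 0 to 219 reads in all libraries together, against 1274 to 17031 for the genes they overlap.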

How the data were processed

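RNA was amplified from sorted cells with a SMART-Seq kit and sequenced as paired-end reads. The authors deposited 1 table of whole-number read counts (47069 Ensembl mouse genes, 12 libraries) without normalization. The submitters' processing notes name HISAT2, TopHat2, HTSeq and the build mm8; positions given here are those of GRCm38 (GENCODE M21), to which 46488 identifiers matched and 581 did not. Groups and replicate numbers came from the sample labels.

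Analyses used R 4.3.3 with edgeR 4.0.16 and DESeq2 1.42.0. Genes were filtered by filterByExpr (16157 kept), scaled by TMM and fitted with robust quasi-likelihood on 4 group means over all 12 libraries, and tested with Benjamini-Hochberg adjustment over all genes tested. Intervals are 95%. The 10 genes, the lists and the tests were chosen with earlier results of these data known. Of the other pathway genes, up to 3 per list, comparison and direction with the smallest adjusted P under 0.05 were named, beside examples that did not pass. 1 further gene is not reported here. Same-numbered libraries correlated in their deviations from the group means by 0.217 to 0.571 between the treated populations, above the limit of 0.1 for a pairing, and by -0.330 to 0.481 elsewhere, with a value under 0.1 in each of those comparisons. Scripts were tested on simulated counts. As alternatives, changed 1 at a time, the fit was run without a filter, with at least 10 reads in every library, with DESeq2's size factors, without TMM, with DESeq2's test, with replicate number as a block, on only the libraries compared, without each library in turn, without both LGR5- replicate 3 libraries, and with a rule of fold and unadjusted P, taken from the limits the study gives. 1 more, a blocked fit of the treated libraries, was added after seeing the data.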

Additional observations from a re-analysis of the deposited data

How the results depend on the processing

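Within the 5-FU comparisons 14 alternatives were fitted for each population: *Fst*, *Thbs1*, *Inhbb* and *Tgfbr2* passed in all 14 in both populations and *Tgfbr3* in all 14 in LGR5+ cells. Over all comparisons 760 values of the 10 genes were recomputed, of which 722 kept direction and side of the threshold, 7 lost the call (all *Inhba* in LGR5+ cells), 4 gained it in LGR5- cells (*Tgfb1* under 2 alternatives, *Tgfbr1* and *Tgfbr3* under 1 each) and 27 changed sign (14 of them between untreated populations), none with a call under either setting. Leaving out 1 library gave 5 to 6 of the 10 genes in LGR5+ and 4 to 5 in LGR5- cells. The share of all genes passing was not set beside these counts, nor beside those of the replicate block below. With the rule of a log2 change beyond 1.5 at an unadjusted P under 0.05, 2 of the 10 genes passed in LGR5+ and 2 in LGR5- cells, and 7 and 5 of the 50 pathway genes, in place of 13 and 13. Between treated populations that rule took 2 pathway genes, no filter 1, DESeq2 2 and the paired fit of the treated libraries 5, in place of 0; the cause was not tested. Replicate number as a block over all 12 libraries (replicate block) gave 6 of the 10 genes in LGR5+ and 5 in LGR5- cells, where *Tgfb1* was added, and 0 between populations. The numbers are not shown to pair libraries. Without LGR5- replicate 3 of both treatments the counts stayed at 6 and 4, with 20 and 16 pathway genes, where 27.5% and 16.9% of all genes passed; the sign changed between untreated populations for *Tgfbr1* (0.205), *Fst* (-0.0753) and *Thbs1* (-0.0507), between treated ones for *Ski* (0.0123) and in the interaction for *Tgfb3* (-0.251) and *Inhba* (-0.0207). *Tgfbr1* turned to 0.0078 with 5-FU in LGR5+ cells with the replicate block, and *Tgfb1* to 0.016 between untreated populations without a filter. Where leaving out 1 library changed a sign, the log2 values ran with 5-FU from -0.0925 to 0.11 for *Tgfbr1* in LGR5+, and from -0.0022 to 0.39 for *Tgfb3* and -0.531 to 0.0062 for *Acvr2b* in LGR5- cells. Between untreated populations they ran from -0.117 to 0.138 for *Tgfb1*, -0.309 to 0.125 for *Tgfb2*, -0.363 to 0.205 for *Tgfbr1*, -0.211 to 0.308 for *Inhba*, -0.0753 to 0.222 for *Fst* and -0.0699 to 0.399 for *Thbs1*; between treated ones from -0.0287 to 0.659 for *Tgfb1*, -0.331 to 0.0231 for *Fstl1*, -0.0954 to 0.0694 for *Ski* and -0.204 to 1.2 for *Vim*. In the interaction they ran from -0.0142 to 0.674 for *Tgfb1*, -0.111 to 0.284 for *Tgfb3* and -0.0389 to 0.43 for *Thbs1*. The cause of these changes of sign was not tested. Without TMM the median of all genes shifted to -0.10 in LGR5+ cells, and *Inhba* lost its call (1.14, adjusted P = 0.0663 in edgeR). Depth limits *Inhba* and *Tgfb1*, which had at most 72 reads in any library.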
